A study of Mus musculus with 18 samples.

Results

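Paneth cells sorted from the mouse intestine were compared, gene by gene, with the unlabelled CD24-positive cells of the same animals. The 12 arrays were taken by their titles, 6 of Paneth cells and 6 of the unlabelled cells, out of 18 arrays in the series. All 16358 measured genes were tested. Both populations came from 6 female Cyp1a1-H2B-YFP mice, which carry a fusion of histone H2B with yellow fluorescent protein under the Cyp1a1 promoter and were 99 to 109 days old. Every mouse had received βNF (beta-naphthoflavone), which induces this promoter, 10 days before the cells were taken, so no array shows the uninduced state. After staining with an antibody to CD24 and the fucose-binding lectin UEA-1, 30000 cells were sorted for each population. The Paneth gate took cells stained by both CD24 and UEA-1. The unlabelled cells, called LCC in the design text, were positive for CD24 and negative for UEA-1 and YFP. The 6 remaining arrays hold YFP-LRC, the cells of the same UEA-1-negative gate that had kept the YFP label, and they appear below only as values beside selected genes. The Paneth gate rests on 2 surface stains, and the UEA-1-negative gates rest on these stains and the YFP label. None rests on a lineage marker. Each array reads bulk RNA of a sorted population, in which fewer cells of a type and less RNA per cell cannot be told apart.

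Paneth cells sit at the base of small intestinal crypts beside the Lgr5-positive stem cells. They secrete lysozyme, alpha-defensins and other antimicrobial proteins from large granules, which needs a well-developed endoplasmic reticulum, and they supply the stem cells with signals such as Wnt3, EGF and Notch ligands. CD24 is also found on enteroendocrine cells, on tuft cells (chemosensory cells with an eicosanoid-producing, partly leukocyte-like gene programme) and on crypt base stem cells. UEA-1 binds fucosylated sugars, which Paneth and goblet cells carry in their granules.

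The deposited values are log2 signals after robust multi-array averaging (RMA), and the probe sets of a gene were reduced to their median on each array. Paneth arrays had median probe set values of 6.63 to 6.77, and LCC arrays had 6.40 to 6.66. The LCC arrays were less alike. Their median correlation with the other 17 arrays was 0.938, 0.895, 0.886, 0.929, 0.872 and 0.825 for mice 1 to 6, against 0.929 to 0.947 for Paneth. The median standard deviation of a gene between arrays was 0.371 in LCC and 0.283 in Paneth. On the first principal component of the 12 arrays (37.9% of the variance), LCC of mice 1 and 4 lay at -11.12 and -4.37, while the other 4 LCC arrays lay between 26.75 and 70.83. Of the Paneth arrays, 5 lay between -39.73 and -27.75 and that of mouse 1 at -10.27, so that the Paneth and LCC arrays of mouse 1 were not separated on this component. No 2 arrays were duplicates. What these differences between LCC arrays contribute to the results was not tested beyond the values given with single mice or arrays left out.

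Far more genes were called higher in Paneth than were called lower. Differences are log2 values, Paneth minus LCC, from limma with the mouse as a block, so that 1 unit is a 2-fold change, and they are followed by standard errors. A gene was called at a Benjamini-Hochberg adjusted p under 0.05. Of all genes, 819 were called higher (5.01%) and 89 lower (0.544%), and 471 (2.88%) and 19 (0.116%) of these differed at least 2-fold. The calls were thus 90.2% higher, a share that was 74.4% after a second quantile normalization and 74.0% with each array centred on its median. The median difference of all genes was 0.03, and -0.06 and -0.08 under those scalings. Over genes whose mean level lay above the median level of all genes, it was 0.25. Of the 908 called genes (5.55% of all), 810 moved the same way in all 6 mice. Paneth and LCC values did not overlap for 463 of the higher and 34 of the lower called genes, and over all genes 585 (3.58%) were entirely above and 131 (0.801%) entirely below.

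The number of calls depended on which mice entered. Without mouse 1, 1907 genes were higher and 279 lower. Without mouse 2 the counts were 136 and 11, without mouse 3 they were 119 and 9, and without mouse 4 they were 436 and 29. Without mouse 5, 169 and 11 were called, and without mouse 6, 196 and 20. With LCC of mice 1 and 4 as the only LCC arrays and no block, 90 genes were higher and 12 lower. All 908 called genes kept their sign in each of the 6 fits that left out 1 mouse, and 904 kept it with LCC of mice 1 and 4 alone. The calls that held in every one of the 6 leave-one-mouse-out fits numbered 99 higher (0.605%) and 8 lower (0.0489%). The plot of calls by setting gives these counts side by side.

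**Figure D1:**
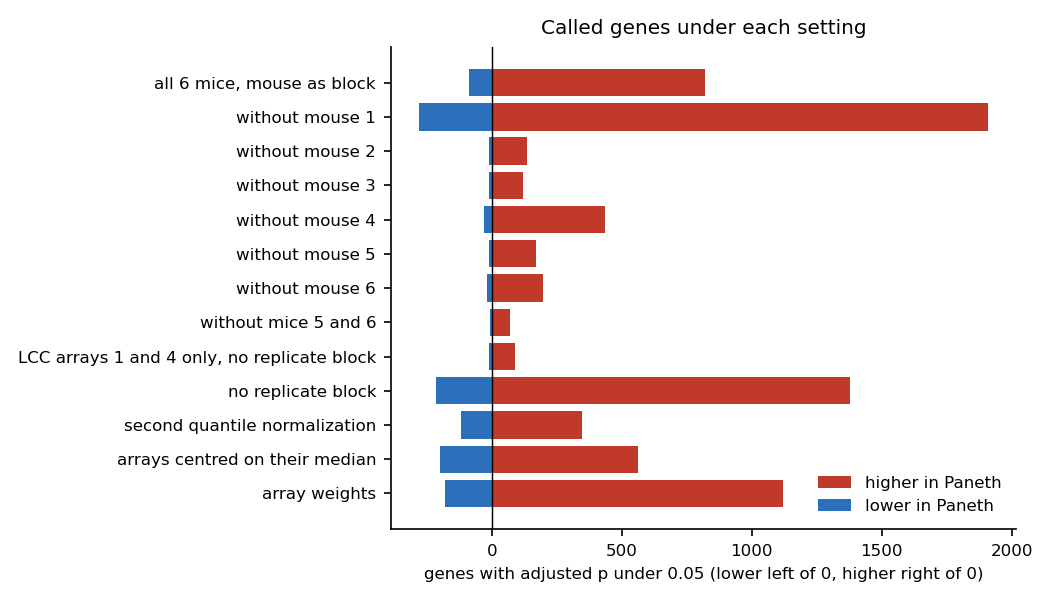
Number of genes with an adjusted p under 0.05 in each fit (x axis, genes; higher in Paneth to the right of 0, lower to the left), one bar per setting on the y axis. The 819 higher and 89 lower genes of all 6 mice became 1907 and 279 without mouse 1 and 119 and 9 without mouse 3.

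Secreted antimicrobial products were higher in part. Of 12 measured antimicrobial products, 4 were called higher (Ang4, Mptx1, Pla2g2a and Itln1), 0 lower and 8 not called, with a list median of 0.29. The called shares of all genes were 5.01% higher and 0.544% lower. At an unadjusted p under 0.05 in limma, 6 were higher and 2 lower, where 19.8% of all genes were higher and 6.76% lower. All 4 held without any 1 mouse. Ang4, a secreted ribonuclease with antimicrobial activity that is read here by 2 probe sets, lay at 11.64, 12.10 and 12.34 (lowest, median and highest of 6) in Paneth and at 8.43, 9.47 and 9.92 in LCC. No LCC array reached a Paneth array, and the difference was 2.77 ± 0.18 (6.81-fold, adjusted p = 0.000399). Mptx1, a mucosal pentraxin, ran from 9.58 over 10.10 to 11.17 in Paneth and from 6.40 over 7.85 to 8.37 in LCC. Its groups did not overlap either (2.44 ± 0.22, adjusted p = 0.00258). Of its 5 probe sets, only 3 moved in the direction of the gene. Over the alternative fits the Mptx1 difference ran from 1.21 to 3.14, with adjusted p up to 0.0341 in limma. Pla2g2a, a bactericidal secretory phospholipase, was higher by 1.83 ± 0.25 (adjusted p = 0.00865) and Itln1, an intelectin that binds microbial sugars, by 1.71 ± 0.25 (adjusted p = 0.01). With LCC of mice 1 and 4 alone, Pla2g2a differed by 1.5 (adjusted p = 0.0507).

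Lysozyme and the alpha-defensins, the best known Paneth products, were not called. Lyz1 lay at 13.23, 13.47 and 13.58 in Paneth and at 12.93, 13.02 and 13.39 in LCC. These values lie near the top of the scale, whose highest gene value on any array was 13.64, and whether the signal was saturated there, which would shrink a difference, was not tested. The ranges overlapped at the upper end of LCC, and the difference was 0.34 ± 0.14 (adjusted p = 0.16), with Paneth above LCC in each of the 6 mice. With probe sets averaged instead of reduced to their median, Lyz1 was called (0.61, adjusted p = 0.0367). The 3 alpha-defensin genes with probe sets of their own, Defa5, Defa24 and Defa25, differed by 0.11 ± 0.15, 0.14 ± 0.16 and 0.24 ± 0.17 (adjusted p from 0.381 to 0.673). Defa5 (12.89 to 13.64 in Paneth) and Defa24 (12.31 to 12.98 in Paneth) also lie near the top of the scale, and saturation was not tested for them either. Defa5 and Defa25 rest on 1 probe set each, and near-identical copies of these genes may share the signal. Reg3a and Reg3b, C-type lectins of the gut lining, had values of -0.91 ± 0.27 (adjusted p = 0.0719) and -0.46 ± 0.19 (adjusted p = 0.159), and Reg3g had 0.79 ± 0.23 (adjusted p = 0.0728).

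Enzymes and granule factors of Paneth cells were higher in part. Of 22 measured, 7 were called higher, 15 not called and 0 lower, where 5.01% of all genes were called higher and 0.544% lower. At an unadjusted p under 0.05 in limma, 13 were higher and 0 lower, against 19.8% and 6.76% of all genes. The list median was 0.68. The 7 called genes were Pnliprp2, Habp2, Copz2, Clps, Mmp7, Spink4 and Agr2. Spink4 and Agr2 also stand in the goblet list and are counted there as well. Without mouse 2, 3 or 5 the list had 5 higher calls, without mouse 6 it had 6 and without mouse 1 it had 9, and with LCC of mice 1 and 4 alone it had 4. The lipase-related Pnliprp2 lay at 11.46, 11.85 and 12.14 in Paneth and at 8.98, 9.47 and 10.56 in LCC (2.21 ± 0.21, adjusted p = 0.00307). Its partner colipase, Clps, was higher by 1.96 ± 0.22 (adjusted p = 0.00373), the secreted serine protease Habp2 by 2.02 ± 0.21 (adjusted p = 0.00326) and the coatomer subunit Copz2 by 1.98 ± 0.28 (adjusted p = 0.00865). None of these 4 had overlapping groups. Copz2 differed by 1.60 (adjusted p = 0.0712) with LCC of mice 1 and 4 alone. Of the niche signals, Wnt3 (0.37 ± 0.19, adjusted p = 0.238), Egf (0.38 ± 0.14, adjusted p = 0.133), Tgfa (-0.05 ± 0.19, adjusted p = 0.892) and Dll4 (-0.13 ± 0.16, adjusted p = 0.615) were not called.

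Mmp7, the metalloprotease that cleaves mouse pro-alpha-defensins into their active form, is both a Paneth gene and a known Wnt target. It lay at 11.21, 11.59 and 12.16 in Paneth and at 9.30, 9.67 and 10.39 in LCC. The groups stood well apart, with a difference of 1.82 ± 0.22 (3.54-fold, adjusted p = 0.00444) that also held with LCC of mice 1 and 4 alone (2.09, adjusted p = 0.00434). Its promoter is shown because it holds the letters of a TCF site, the sequence that the Wnt pathway's DNA-binding partners recognise. The stretch covers 250 bases before to 50 after the start in RefSeq on the GRCm38.p6 build (chr9:7691840-7692139, plus strand), 1 of 2 promoters listed for the gene, and capitals mark the match to ATCAAAG, searched on both strands.
Mmp7: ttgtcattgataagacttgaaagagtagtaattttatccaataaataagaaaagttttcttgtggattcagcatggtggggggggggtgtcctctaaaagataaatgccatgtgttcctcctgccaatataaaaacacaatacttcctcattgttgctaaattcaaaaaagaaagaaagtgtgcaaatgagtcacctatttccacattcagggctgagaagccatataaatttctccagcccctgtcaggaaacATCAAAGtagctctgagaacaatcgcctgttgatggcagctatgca
The match lies 4 to 10 bases past the start. Of 12 Wnt target genes with a promoter in the table, 2 (Mmp7 and Sp5) hold the motif, and 4.29% of all 27025 genes do. Sp5 itself differed by -0.10 ± 0.18 (adjusted p = 0.745).

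**Figure D2:**
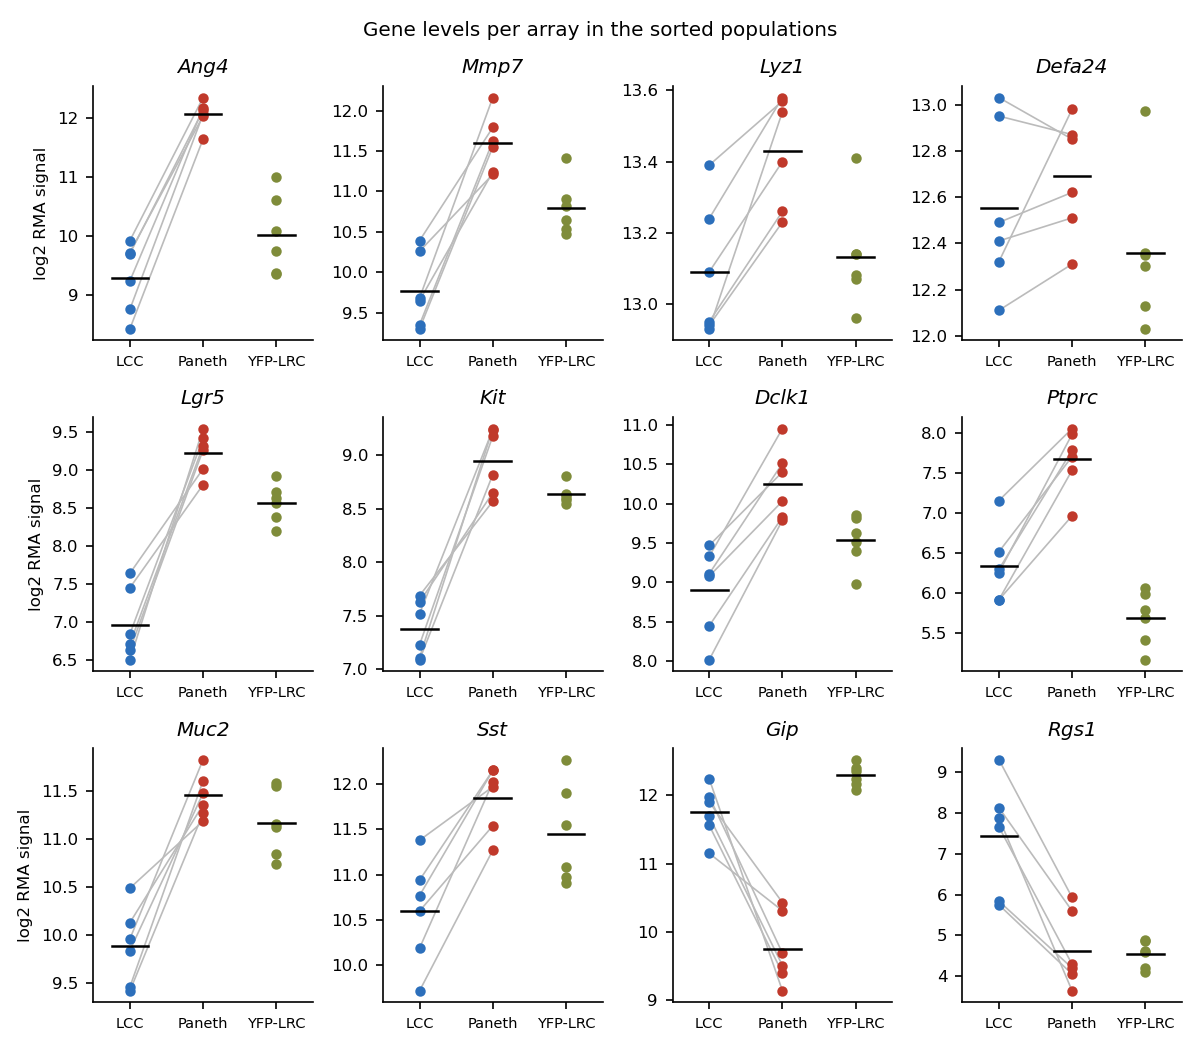
Level of 12 genes on each array (y axis, log2 RMA signal, own scale for each panel; x axis, LCC, Paneth and YFP-LRC, 6 arrays each). Points are arrays, bars are population means and grey lines join the LCC and Paneth arrays of a mouse. Ang4 and Mmp7 stood apart in all 6 mice, Lyz1 and Defa24 overlapped, and Gip and Rgs1 were lower in Paneth.

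The plot of levels by population shows these contrasts array by array: for Ang4, Mmp7, Lgr5, Kit, Dclk1 and Muc2 the lowest Paneth array stood above the highest LCC array, whereas for Defa24 the joining lines cross.

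Genes of the 3 tuft cell lists were often called higher. The lists were chosen with earlier results of these data known, so their counts describe the data and are no independent test. The third list holds signalling genes known mainly from blood cells. Of 50 measured genes in 3 tuft lists, 28 were called higher and 1 lower, against 5.01% and 0.544% of all genes. Their median difference was 0.80, beside 0.03 for all genes. The 44 of them above the median level had a median of 1.01, beside 0.25 for all genes above that level. The values of 22 of them did not overlap between the groups, against 3.58% of all genes, and 15 were called without any 1 mouse. Without mouse 2 or 3 the count of higher calls was 15, without mouse 5 or 6 it was 21, without mouse 4 it was 23 and without mouse 1 it was 29. It was 14 with LCC of mice 1 and 4 alone and 18 after a second quantile normalization.

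In the core tuft list, 12 of 23 genes were higher and 0 lower (0 also at an unadjusted p under 0.05 in limma), with a median of 0.73. Sh2d7, an SH2-domain protein, lay at 8.65, 9.10 and 9.55 in Paneth and at 6.70, 7.06 and 7.62 in LCC (1.96 ± 0.19, adjusted p = 0.00326). Il17rb, a receptor subunit for the tuft cytokine IL-25, ran from 7.47 over 7.84 to 8.21 in Paneth and from 5.40 over 5.90 to 6.68 in LCC (1.91 ± 0.19, adjusted p = 0.00326). Neither gene had an LCC array within the Paneth range. The kinase Bmx was higher by 1.86 ± 0.20 (adjusted p = 0.00326), the keratin Krt18 by 1.81 ± 0.21 (adjusted p = 0.00398), the G protein regulator Rgs13 by 1.70 ± 0.19 (adjusted p = 0.00326) and the actin-binding Avil by 1.30 ± 0.18 (adjusted p = 0.00851). The widely used marker Dclk1 lay at 9.79, 10.22 and 10.95 in Paneth and at 8.02, 9.10 and 9.47 in LCC, without overlap (1.34 ± 0.17, adjusted p = 0.00512). Trpm5, the cation channel of taste-type signalling, was higher by 1.22 ± 0.22 (adjusted p = 0.0188), a call that ended without mouse 2, 3, 5 or 6 (adjusted p up to 0.0755). Pou2f3, the transcription factor that tuft cells need, was higher by 0.73 ± 0.18 (adjusted p = 0.0474) and lost the call without any 1 of mice 2 to 6 (up to 0.135). Not called were Il25 (0.19 ± 0.21, adjusted p = 0.576), Gfi1b (0.19 ± 0.15, adjusted p = 0.429) and Gnb3 (-0.15 ± 0.19, adjusted p = 0.622). Without mouse 2 or 3 this list had 7 higher calls, and with LCC of mice 1 and 4 alone it had 6.

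Among 9 genes of eicosanoid synthesis, 4 were higher and 0 lower (0 also at an unadjusted p under 0.05 in limma). Ptgs1, the constitutive cyclooxygenase, lay at 7.32, 7.89 and 8.79 in Paneth and at 6.05, 6.25 and 6.40 in LCC (1.74 ± 0.18, adjusted p = 0.00326), and Alox5, the first enzyme of leukotriene synthesis, was higher by 1.59 ± 0.16 (adjusted p = 0.00326). Both genes were free of overlap and held without any 1 mouse. Hpgds, a prostaglandin D synthase (1.03 ± 0.23, adjusted p = 0.0391), and Alox5ap, the activator of Alox5 (0.81 ± 0.18, adjusted p = 0.0351), lost the call without any 1 of mice 2 to 6 (up to 0.111 and 0.11) and under both other scalings. Without mouse 2, 3, 4, 5 or 6 the list therefore had 2 higher calls.

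The third tuft list holds signalling genes known mainly from blood cells. Of 19 measured, 12 were higher and 1 lower, and the median was 0.98. Cd300lf, an immunoglobulin-like receptor, lay at 8.31, 9.31 and 9.76 in Paneth, at 6.92, 7.09 and 7.66 in LCC and at 6.60, 7.08 and 7.73 in YFP-LRC. It was higher in Paneth than in LCC by 1.93 ± 0.20 (adjusted p = 0.00326). Plek, a protein kinase C substrate, was higher by 1.83 ± 0.24 (adjusted p = 0.00646), the adaptor Skap2 by 1.71 ± 0.26 (adjusted p = 0.0114) and the inositol phosphatase Inpp5d by 1.54 ± 0.17 (adjusted p = 0.00354). Ptprc, the pan-leukocyte phosphatase CD45, lay at 6.97, 7.75 and 8.06 in Paneth and at 5.92, 6.28 and 7.16 in LCC. The LCC array of mouse 5 reached into the Paneth range, and the difference was 1.33 ± 0.16 (adjusted p = 0.00512). The 1 lower member was Tyrobp, an adaptor of myeloid receptors (-1.02 ± 0.19, adjusted p = 0.0217), a call that ended without mouse 2, 3 or 6 (up to 0.0814). The list had 6 higher calls without mouse 2 or 3 and with LCC of mice 1 and 4 alone, and 7 after a second quantile normalization.

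The leukocyte marker lists, which do not include Ptprc, held no gene called higher. Of 59 measured genes in the T cell, B and plasma cell, and myeloid and mast cell lists, 0 were called higher and 1 lower in limma. The lower one was the antibody joining chain Jchain, and 5.01% and 0.544% of all genes were called higher and lower. At an unadjusted p under 0.05, 0 of the 59 were higher and 9 lower, against 19.8% and 6.76% of all genes. Their median difference was -0.21, and 52 of the 59 were below 0. The 10 above the median level had a median of -0.07, beside 0.25 for all genes above that level. What the low signal of the others contributes was not tested. The median level of the T cell list was 5.90 to 6.27 in Paneth and 6.11 to 6.40 in LCC, that of the B and plasma cell list 5.61 to 6.07 and 6.16 to 6.44, and that of the myeloid and mast cell list 5.66 to 5.87 and 5.84 to 6.16. The T cell receptor component Cd3e was not called (-0.41 ± 0.20, adjusted p = 0.219), nor was the B cell receptor component Cd79a (adjusted p = 0.992). Jchain (-0.73 ± 0.17, adjusted p = 0.0446) lost the call without any 1 of mice 2 to 6 (up to 0.125).

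Goblet cell genes were higher in part. Muc2, the gel-forming mucin of goblet cells, lay at 11.19, 11.42 and 11.83 in Paneth and at 9.42, 9.90 and 10.49 in LCC. The groups did not overlap (1.58 ± 0.20, adjusted p = 0.00643), and the call held without any 1 mouse. Of 18 measured goblet genes, 6 were called higher and 1 lower, against 5.01% and 0.544% of all genes, with a median of 0.64. Spink4 and Agr2 among the higher ones also stand in the Paneth enzyme list. Ern2, an endoplasmic reticulum stress sensor of mucin-secreting cells, was higher by 1.02 ± 0.19 (adjusted p = 0.0217), Spink4, a protease inhibitor, by 1.00 ± 0.24 (adjusted p = 0.0431) and the transcription factor Creb3l4 by 0.94 ± 0.20 (adjusted p = 0.0351). These 3 lost the call without mouse 2, 3 or 5 (up to 0.0814, 0.128 and 0.103), Ern2 also without mouse 6 and the other 2 without mouse 4. Zg16, a lectin of mucus granules, was lower by 0.91 ± 0.19 on the log2 scale (adjusted p = 0.0336) in 5 of 6 mice, and the list had 0 lower calls without mouse 2, 3, 4 or 5, with no block and with LCC of mice 1 and 4 alone. Atoh1, which commits crypt progenitors to secretory fates, lay at 6.97, 7.71 and 8.06 in Paneth and at 6.04, 6.82 and 7.37 in LCC. Its ranges overlapped (0.86 ± 0.24, adjusted p = 0.0642), and it was called without mouse 1, whereas Tff3, a trefoil peptide shared by goblet and Paneth lists, had -0.08 ± 0.18 (adjusted p = 0.795). Without mouse 2, 3 or 5 the goblet list had 1 higher call, without mouse 4 or 6 it had 3, and with LCC of mice 1 and 4 alone it had 2. After a second quantile normalization it had 1, and with centring 2.

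Genes of the endoplasmic reticulum and of protein secretion were higher in part, and 26 of 35 did not pass the test. Of the 35, 9 were called higher and 0 lower (24 higher and 0 lower at an unadjusted p under 0.05 in limma, against 19.8% and 6.76% of all genes). Their median was 0.65, with 33 above 0. All 35 lay above the median level, and the genes above that level had a median of 0.25. Dnajb9, a co-chaperone of the lumen, lay at 7.27, 7.65 and 8.67 in Paneth and at 3.96, 5.88 and 6.79 in LCC (2.07 ± 0.44, adjusted p = 0.0328). Sel1l, a subunit of the degradation machinery for misfolded proteins, was higher by 1.47 ± 0.23 (adjusted p = 0.0118), the disulfide isomerase P4hb by 1.41 ± 0.25 (adjusted p = 0.0178) and the kinase inhibitor and co-chaperone Dnajc3 by 1.37 ± 0.23 (adjusted p = 0.0148). The groups of these 4 genes did not overlap, but none kept the call in all 6 leave-one-mouse-out fits. Without mouse 2 or 3 all 4 lost it (up to 0.0962, 0.0544, 0.0732 and 0.0666), Dnajb9 also without mouse 5 or 6 and Dnajc3 also without mouse 5. Xbp1, the central transcription factor of the unfolded protein response, was not called (0.76 ± 0.25, adjusted p = 0.0962), nor was the main lumenal chaperone Hspa5 (0.74 ± 0.27, adjusted p = 0.118). The list had 17 higher calls without mouse 1, 0 without mouse 2 or 3, 2 without mouse 5, 4 without mouse 6 and 1 with LCC of mice 1 and 4 alone. After a second quantile normalization it had 4, and with centring 5.

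Some promoters of this list hold the endoplasmic reticulum stress response element, whose letters are CCAAT and CCACG with any 9 bases between them and which is bound in part by Xbp1 and its relatives. Of 28 list genes with a RefSeq promoter, 7 (Hspa5, Hsp90b1, Calr, Canx, Pdia6, Dnajc3 and Creld2) hold it on either strand, or 25%, against 0.137% of all 27025 genes. The motif was among 9 searched. It is the element of the stress response that the list was built on, so this share is no independent finding. Dnajc3 was the 1 called gene of these 7, and the differences of the others ran from 0.32 to 0.74. The promoters of Dnajc3 (chr14:118937682-118937981, plus strand) and Hspa5 (chr2:34771840-34772139, plus strand) are shown as a called and an uncalled member that share the element, in GRCm38.p6 and over the same 300 bases around the start, with the element in capitals.
Dnajc3: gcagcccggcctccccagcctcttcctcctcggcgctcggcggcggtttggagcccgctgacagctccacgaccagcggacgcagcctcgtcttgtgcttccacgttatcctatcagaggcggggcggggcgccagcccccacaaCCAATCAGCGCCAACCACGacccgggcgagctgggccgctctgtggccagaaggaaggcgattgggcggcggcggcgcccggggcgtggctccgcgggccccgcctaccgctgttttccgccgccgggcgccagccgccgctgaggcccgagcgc
Hspa5: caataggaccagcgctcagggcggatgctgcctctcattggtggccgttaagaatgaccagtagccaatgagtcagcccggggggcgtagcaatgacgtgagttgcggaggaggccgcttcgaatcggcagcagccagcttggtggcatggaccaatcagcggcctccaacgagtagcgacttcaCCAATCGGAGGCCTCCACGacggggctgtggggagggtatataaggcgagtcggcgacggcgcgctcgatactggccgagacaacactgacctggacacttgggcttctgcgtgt
The element lies 105 to 87 bases before the start in Dnajc3 and 65 to 47 bases before it in Hspa5.

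Exocytosis genes were higher in a few members, and the lysosome list had a median of 0.50 beside 0.03 for all genes. The 22 lysosome genes above the median level also had 0.50, beside 0.25 for all genes above that level. Of 21 genes of regulated exocytosis, 5 were called higher and 0 lower, against 5.01% and 0.544% of all genes. At an unadjusted p under 0.05 in limma, 8 were higher and 2 lower, against 19.8% and 6.76% of all genes. Their median of 0.03 turned to -0.17 after a second quantile normalization, -0.08 with centring and -0.01 with LCC of mice 1 and 4 alone. Sytl2, a Rab27 effector that docks granules, lay at 7.90, 8.51 and 9.41 in Paneth and at 5.63, 6.31 and 6.86 in LCC. It stood apart in every mouse (2.21 ± 0.27, adjusted p = 0.00441). The small GTPase Rab27b was higher by 1.79 ± 0.38 (adjusted p = 0.0331) and the vesicle SNARE Vamp2 by 1.22 ± 0.21 (adjusted p = 0.0173), both lost without mouse 2, 3, 5 or 6 (up to 0.102 and 0.069). The list had 1 higher call without mouse 3 and 2 without mouse 2, 5 or 6. Of 26 lysosome and autophagy genes, 5 were higher and 0 lower, with 22 above 0. Unadjusted, 16 were higher and 1 lower. Lamp2, a lysosomal membrane protein (1.59 ± 0.31, adjusted p = 0.0262), and the hexosaminidase subunit Hexa (1.45 ± 0.26, adjusted p = 0.0199) were the largest. Lamp2 lost the call without mouse 2, 3, 5 or 6 (up to 0.0941) and Hexa without mouse 2, 3 or 6 (up to 0.0755). The lysosome list had 10 higher calls without mouse 1, 3 without mouse 4, 1 without mouse 5 and 0 without mouse 2, 3 or 6, and 9 with no block.

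**Figure D3:**
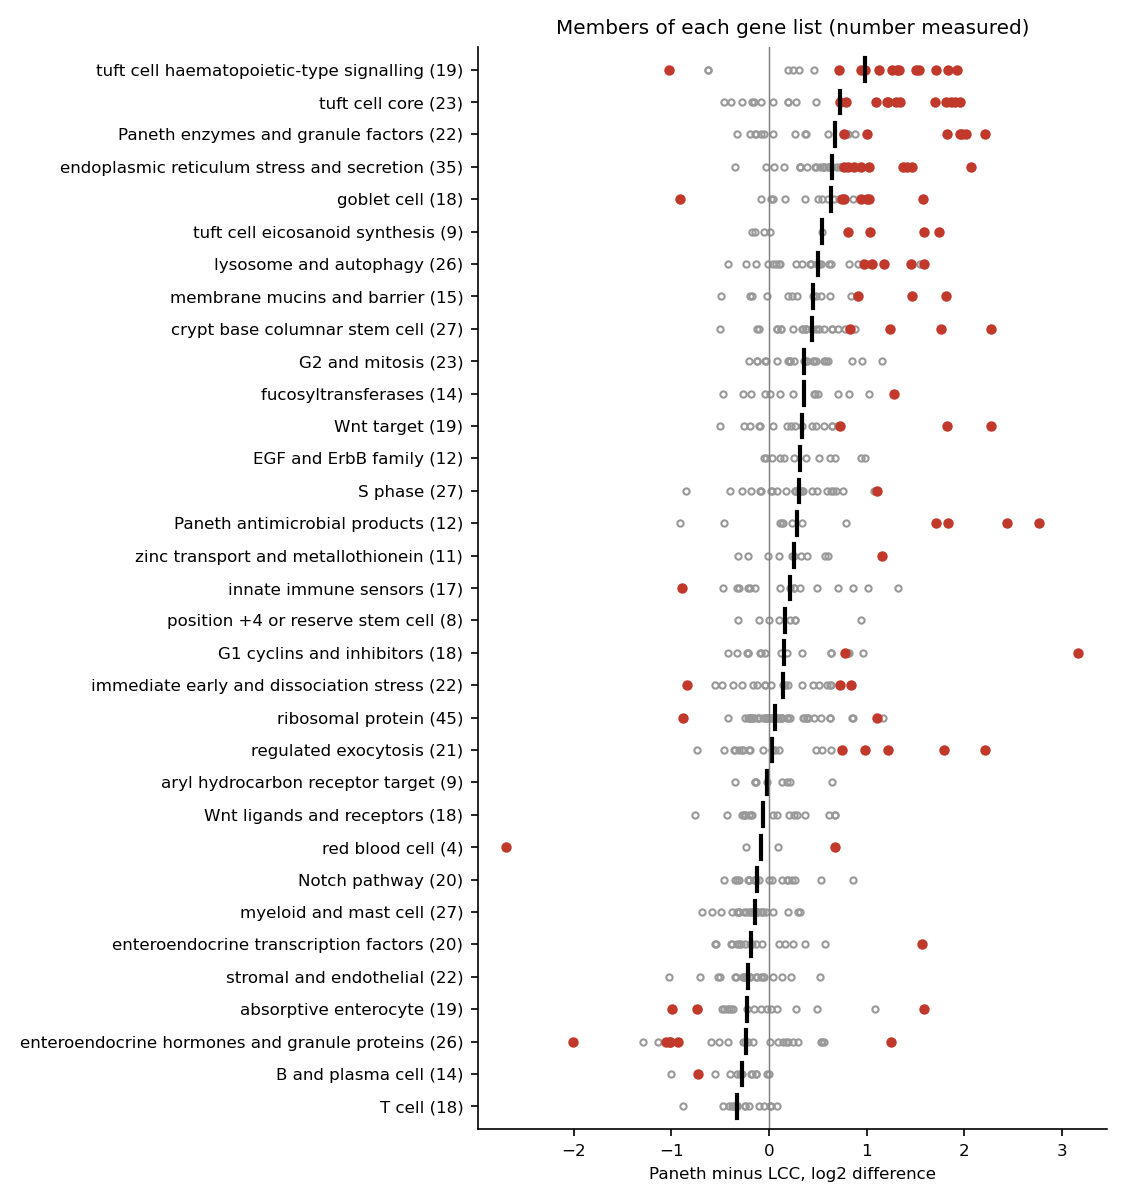
Difference of every measured member of the 33 gene lists (x axis, Paneth minus LCC, log2; y axis, list with the number measured). Filled red points are genes called at an adjusted p under 0.05, open points are not called, and black bars are list medians. The tuft list of haematopoietic-type signalling has the highest median (0.98) and the T cell list the lowest (-0.33).

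The plot of gene lists places the Paneth enzyme, tuft, secretion and goblet lists at the top and the leukocyte, hormone and enterocyte lists at the bottom. Filled points far from their list's bar mark genes such as Ccnj and Sst that differed far more than the rest of their list.

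Most genes of the crypt base columnar stem cell list lay above 0, and a few were called higher. Lgr5, the R-spondin receptor that marks crypt base columnar stem cells, lay at 8.81, 9.29 and 9.55 in Paneth and at 6.50, 6.78 and 7.64 in LCC. No LCC array came near the Paneth range, and the difference was 2.27 ± 0.25 (4.81-fold, adjusted p = 0.00326), or 1.68 (adjusted p = 0.00777) with LCC of mice 1 and 4 alone. Soat1, a cholesterol acyltransferase, was higher by 1.76 ± 0.22 (adjusted p = 0.00586), and by 1.36 (adjusted p = 0.0563) with those 2 arrays. Of 27 measured genes in this list, 24 were above 0, and the median was 0.44. In limma, 4 were called higher and 0 lower, against 5.01% and 0.544% of all genes. At an unadjusted p under 0.05, 17 were higher and 0 lower, against 19.8% and 6.76% of all genes. The other 2 called genes were Slc12a2, a chloride cotransporter (1.24 ± 0.29, adjusted p = 0.0427), and Prom1, the surface protein CD133 (0.83 ± 0.19, adjusted p = 0.0391). Both lost the call without mouse 2, 3, 5 or 6 (up to 0.119 and 0.115), so that the list then had 2 calls, as it did after a second quantile normalization. Ascl2, the transcription factor of these stem cells, had -0.50 ± 0.24 (adjusted p = 0.217), Smoc2 0.78 ± 0.22 (adjusted p = 0.0653) and Axin2, a feedback inhibitor of the Wnt pathway, 0.65 ± 0.21 (adjusted p = 0.0889). The position +4 or reserve stem cell list had 0 of 8 genes called in limma (1 higher unadjusted), with Hopx at 0.00 ± 0.26 and Lrig1 at 0.94 ± 0.24 (adjusted p = 0.0514).

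Kit, the stem cell factor receptor, lay at 8.57, 9.0 and 9.25 in Paneth and at 7.09, 7.38 and 7.69 in LCC. The gap between the groups was wide relative to their spread (1.57 ± 0.20, adjusted p = 0.00577), and the call held without any 1 mouse. In the Wnt target list, 3 of 19 genes were called higher (Lgr5, Mmp7 and Myc) and 0 lower, against 5.01% and 0.544% of all genes. Unadjusted in limma, 9 were higher and 0 lower, against 19.8% and 6.76% of all genes. The list median of 0.34 was -0.03 after a second quantile normalization. Myc, a growth-promoting transcription factor, was higher by 0.73 ± 0.17 (adjusted p = 0.0432) and lost the call without mouse 2, 3, 5 or 6 (up to 0.115), which left 2 genes. Sox9, which Paneth cells need to form, lay at 8.52, 8.68 and 9.34 in Paneth and at 7.97, 8.63 and 8.97 in LCC, with overlapping groups (0.27 ± 0.20, adjusted p = 0.39).

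Receptor and ligand families held no called gene in the 12 arrays, where 5.55% of all genes were called. At that share, lists of 12 to 20 genes would hold few called genes or none. Of the 18 Wnt ligand and receptor genes, 0 were called in limma (3 higher and 2 lower at an unadjusted p under 0.05). Of 20 Notch pathway genes 0 were called (1 and 1) and of 12 EGF and ErbB genes 0 (5 and 0). Unadjusted, 19.8% of all genes were higher and 6.76% lower. The medians of these 3 lists were -0.06, -0.12 and 0.32. Without mouse 1 these lists had 1 higher and 1 lower, 1 higher, and 3 higher genes called, and in all 18 arrays with the mouse as a block they had 3 higher, 1 higher and 1 lower, and 2 higher. With no block they had 0, 1 higher and 2 higher. The aryl hydrocarbon receptor list had 0 of 9 called in limma (1 higher unadjusted), and 3 of the 9 lay above the median level. Both populations of every mouse had received the inducer, so this contrast does not read induction. Cyp1a1 itself lay at 5.01, 5.49 and 5.81 in Paneth and at 4.76, 5.21 and 5.85 in LCC (0.21 ± 0.22, adjusted p = 0.571). These values are below the median gene value of 6.54. The fucosyltransferase Fut2, which builds the sugar that UEA-1 binds, ran from 6.26 over 6.63 to 7.72 in Paneth and from 4.56 over 5.33 to 6.51 in LCC. It was higher by 1.28 ± 0.24 (adjusted p = 0.0234), as the 1 called gene of 14 in its list, and lost the call without mouse 2, 3, 5 or 6 (up to 0.0851).

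The enteroendocrine hormone and granule list held the most genes called lower among the lists. Gip, the incretin hormone of K cells, lay at 9.14, 9.60 and 10.43 in Paneth, at 11.15, 11.79 and 12.24 in LCC and at 12.08, 12.30 and 12.52 in YFP-LRC. Every Paneth array was below every LCC array (-2.01 ± 0.26, adjusted p = 0.00643). The hormone gene Gcg, which encodes glucagon and GLP peptides, had -1.06 ± 0.19 (adjusted p = 0.0204), and the granule proteins Chgb and Chga had -1.01 ± 0.17 (adjusted p = 0.0161) and -0.93 ± 0.17 (adjusted p = 0.021). Fabp5, a fatty acid binding protein, had -1.01 ± 0.19 (adjusted p = 0.0215). Gcg and Chgb lost the call without mouse 3 or 5 (up to 0.0755 and 0.0676), Fabp5 without mouse 2, 3 or 5 (up to 0.08) and Chga without mouse 2, 3, 5 or 6 (up to 0.0814). Gip held without any 1 mouse and had -1.61 (adjusted p = 0.0563) with LCC of mice 1 and 4 alone.

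Of 26 measured hormone and granule genes, 5 were called lower and 1 higher, against 0.544% and 5.01% of all genes, with a median of -0.24. At an unadjusted p under 0.05 in limma, 9 were lower and 4 higher, against 6.76% and 19.8% of all genes. The 1 called higher was Sst, somatostatin, the hormone of D cells. It lay at 11.27, 12 and 12.15 in Paneth and at 9.72, 10.69 and 11.38 in LCC, with 1 LCC array inside the Paneth range (1.25 ± 0.18, adjusted p = 0.0103). Not called were Cck (-1.14 ± 0.30, adjusted p = 0.0548), Tac1 (-1.29 ± 0.35, adjusted p = 0.0609), Pyy (0.54 ± 0.21, adjusted p = 0.141) and Sct (0.53 ± 0.21, adjusted p = 0.141). The list had 3 lower calls without mouse 2 and 1 without mouse 3 or 5, and 1 with LCC of mice 1 and 4 alone. Of 20 enteroendocrine transcription factors, 1 was higher, Prox1 (1.57 ± 0.27, adjusted p = 0.0178), which lost the call without mouse 2, 3 or 6 (up to 0.0732), and 0 were lower (3 lower unadjusted in limma). Neurog3, the initiator of the endocrine lineage, was not called (-0.38 ± 0.18, adjusted p = 0.211). Nefm, a neurofilament subunit outside the lists, ran from 6.73 over 7.04 to 7.67 in Paneth and from 7.83 over 8.33 to 9.03 in LCC, without overlap (-1.26 ± 0.20, adjusted p = 0.0141), and it held without any 1 mouse but not with LCC of mice 1 and 4 alone (-1.26, adjusted p = 0.0532).

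The largest lower difference was in Rgs1, a regulator of G protein signalling known from lymphocytes. It lay at 3.64, 4.24 and 5.93 in Paneth and at 5.75, 7.77 and 9.31 in LCC. The LCC arrays were spread widely and the ranges overlapped slightly (-2.81 ± 0.33, 7.02-fold, adjusted p = 0.00425). The call held without any 1 mouse, and with LCC of mice 1 and 4 alone the difference was -2.09 (adjusted p = 0.182). Srgn, the granule proteoglycan of blood cells (-1.41 ± 0.31, adjusted p = 0.0359), the cytokine Il1b (-1.03 ± 0.25, adjusted p = 0.0453) and the nucleotide sugar receptor P2ry14 (-1.25 ± 0.28, adjusted p = 0.0391) were also lower. All 3 lost the call without mouse 2, 3, 5 or 6 (up to 0.102, 0.125 and 0.106), Il1b also without mouse 4. The red cell gene Hbb-b1, read by 2 probe sets, lay at 3.89, 4.25 and 4.50 in Paneth and at 5.15, 6.23 and 9.54 in LCC, with the LCC arrays of mice 3 and 6 far above the rest (-2.69 ± 0.59, adjusted p = 0.0351). It lost the call without any 1 of mice 2 to 6 (up to 0.102). Of the 4 measured red cell genes, the membrane protein Epb42 was higher (0.68 ± 0.15, adjusted p = 0.0336, lost without any 1 of mice 2 to 6, up to 0.0981) and the other 2 were not called. Beside these genes, the leukocyte lists had LCC levels that overlapped or lay slightly above those of Paneth, as given above, and the part of other cells in these differences was not tested.

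Mrfap1 and Tbca, lower genes outside the lists, held without any 1 mouse. Mrfap1, a nuclear protein of the MRG complex, ran from 7.15 over 7.73 to 8.32 in Paneth and from 8.46 over 9.11 to 10.09 in LCC (-1.42 ± 0.18, adjusted p = 0.00535), and with probe sets averaged it had -0.41 (adjusted p = 0.0617). Tbca, a tubulin folding cofactor, had -1.14 ± 0.16 (adjusted p = 0.00842). With LCC of mice 1 and 4 alone they had -1.09 (adjusted p = 0.163) and -1.20 (adjusted p = 0.131). Of 19 measured enterocyte genes, 2 were lower, Krt20, a keratin of mature villus cells (-0.99 ± 0.24, adjusted p = 0.0446), and the fatty acid binding protein Fabp2 (-0.74 ± 0.15, adjusted p = 0.0292), and 1 was higher, the microvillus cadherin Cdhr5 (1.59 ± 0.25, adjusted p = 0.0129). Krt20 lost the call without any 1 of mice 1, 2, 3, 4 and 6 (up to 0.129), Fabp2 without any 1 of mice 2 to 6 (up to 0.0935) and Cdhr5 without mouse 3 (0.0586). Over all genes, 0.544% were called lower and 5.01% higher. At an unadjusted p under 0.05 in limma, 6 of the 19 enterocyte genes were lower and 2 higher, against 6.76% and 19.8% of all genes.

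**Figure D4:**
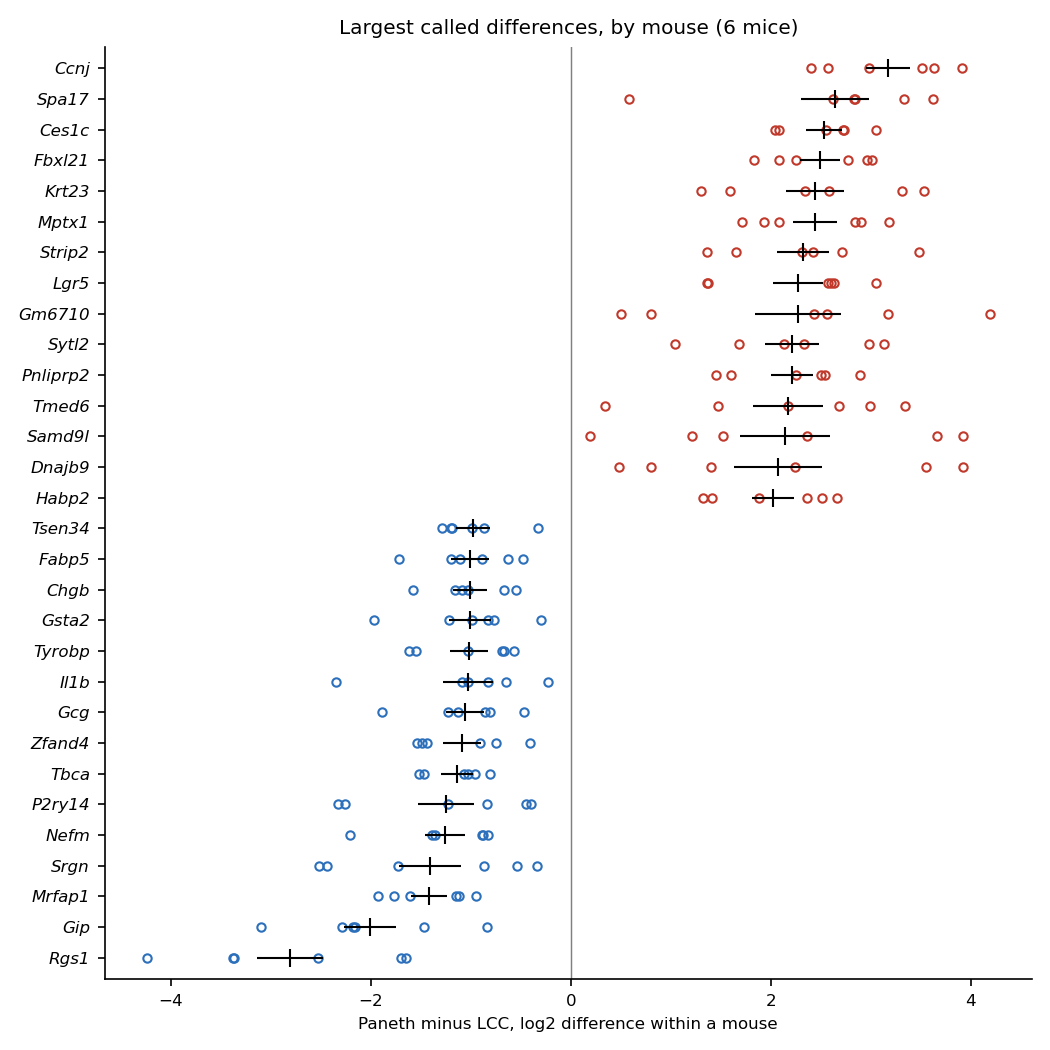
The 15 largest called differences in each direction among genes with at least 3 probe sets and the same sign in all 6 mice (x axis, Paneth minus LCC in log2; y axis, gene). Circles are the 6 mice, ticks are the fitted difference and lines its standard error. Ccnj has the largest higher difference (3.17) and Rgs1 the largest lower one (-2.81).

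The plot of differences by mouse shows that the largest higher genes varied in their agreement between mice: the 6 circles of Ces1c lie close together, while those of Gm6710 and Samd9l spread widely. Ccnj, which encodes cyclin J, lay at 8.92, 9.86 and 10.54 in Paneth, at 6.35, 6.60 and 7.0 in LCC and had a mean of 7.31 in YFP-LRC. It had the largest difference of all called genes under the naming rule (3.17 ± 0.22, 8.98-fold, adjusted p = 0.000399), and the call held with LCC of mice 1 and 4 alone (3.12, adjusted p = 0.00423). Ces1c, a carboxylesterase, lay at 6.89, 7.54 and 8.06 in Paneth and at 4.62, 5.03 and 5.38 in LCC (2.53 ± 0.18, adjusted p = 0.000399). The ubiquitin ligase component Fbxl21 was higher by 2.49 ± 0.20 (adjusted p = 0.000914), the keratin Krt23 by 2.44 ± 0.29 (adjusted p = 0.00441) and Strip2, a striatin-interacting protein, by 2.32 ± 0.26 (adjusted p = 0.00348). These 5 genes were free of overlap and held without any 1 mouse and with LCC of mice 1 and 4 alone. Spa17 (2.64 ± 0.34, adjusted p = 0.00643) held without any 1 mouse but not with those 2 arrays (2.36, adjusted p = 0.0774). The cargo receptor relative Tmed6 (2.17 ± 0.35, adjusted p = 0.0141) lost the call without mouse 2 (0.0584), Samd9l, an interferon-induced antiviral gene (2.14 ± 0.45, adjusted p = 0.0314), without mouse 3, 5 or 6 (up to 0.0942) and Gm6710 (2.27 ± 0.43, adjusted p = 0.0237) without mouse 2, 3, 5 or 6 (up to 0.0846).

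The cell cycle lists of S phase and of G2 and mitosis held 1 called gene between them. Over all genes, 5.01% were called higher and 0.544% lower, and at those shares lists of this size would hold few calls. Mki67, a marker of dividing cells, lay at 10.28, 10.74 and 10.92 in Paneth and at 8.95, 10.51 and 11.04 in LCC, so that the Paneth arrays fell within the LCC range (0.36 ± 0.25, adjusted p = 0.369). Of 23 genes of G2 and mitosis, 0 were called in limma (5 of 23 higher and 0 lower unadjusted, against 19.8% and 6.76% of all genes), and their median of 0.36 came from -0.38, 0.18, 0.63, -0.06, 0.27 and 1.16 in mice 1 to 6. With LCC of mice 1 and 4 alone the median was -0.18, and what single arrays contribute to this spread was not tested. Of 27 S phase genes, 1 was higher, the replication clamp loader Rfc3 (1.11 ± 0.21, adjusted p = 0.0252), which lost the call without mouse 2, 3, 5 or 6 (up to 0.0846). Unadjusted in limma, 7 of the 27 were higher and 1 lower. Of 22 stromal and endothelial genes, 0 were called in limma (1 higher and 6 lower unadjusted, against 19.8% and 6.76% of all genes). The list level was 5.71 to 6.02 in Paneth and 5.81 to 6.20 in LCC, and Col1a1 had -0.25 ± 0.15 (adjusted p = 0.315).

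**Figure D5:**
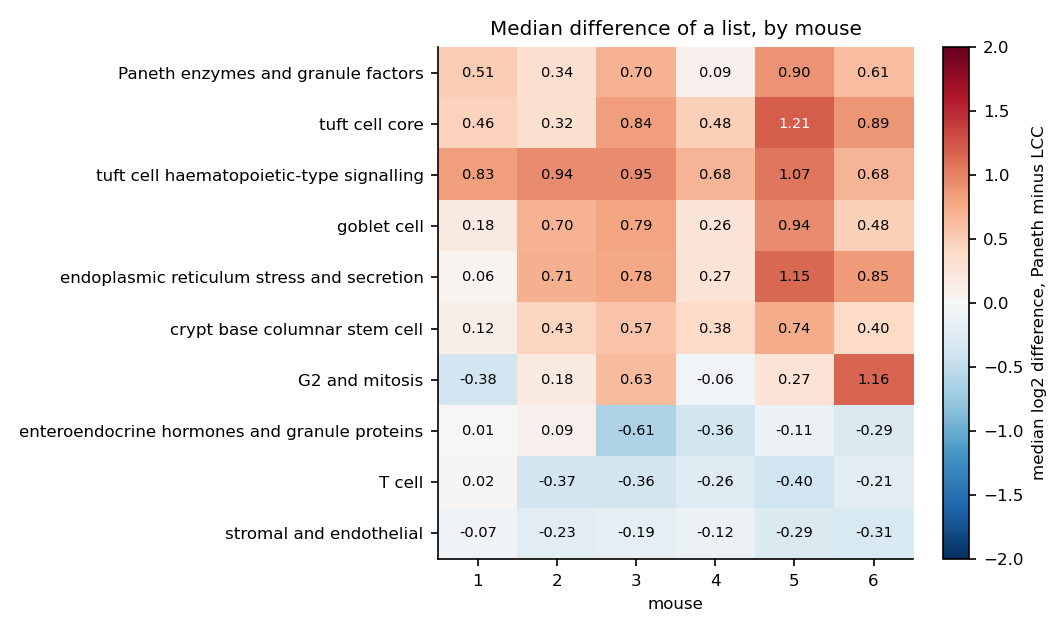
Median log2 difference, Paneth minus LCC, of 10 gene lists (y axis) in each of the 6 mice (x axis); the colour scale and the printed numbers give the same value. The tuft list of haematopoietic-type signalling runs from 0.68 to 1.07 and the G2 and mitosis list from -0.38 to 1.16.

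The plot of list medians by mouse shows how far each list varied between animals. The haematopoietic-type tuft list stayed between 0.68 and 1.07 in the 6 mice, and the core tuft list between 0.32 and 1.21. The secretion list ran from 0.06 in mouse 1 and 0.27 in mouse 4 to 1.15 in mouse 5, and the goblet list from 0.18 in mouse 1 to 0.94 in mouse 5. The hormone list was above 0 in mice 1 and 2, at 0.01 and 0.09, and lowest in mouse 3 at -0.61.

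YFP-LRC gives the same genes a second UEA-1-negative population to stand beside. Comparisons with LCC and with YFP-LRC share the Paneth arrays, and the values are given side by side. In a fit of all 18 arrays with the mouse as a block, 57 genes were higher in Paneth than in YFP-LRC (0.348%) and 10 lower (0.0611%). The YFP-LRC array of mouse 6 has a litter label unlike that of the other arrays of mouse 6, so its pairing is uncertain. Leaving it out gave 42 higher and 8 lower calls, with 40 and 8 shared by both fits, and the genes named here stayed on their side of the threshold. Paneth exceeded YFP-LRC by 2.49 for Ccnj (adjusted p = 0.000137), 2.27 for Mptx1 (adjusted p = 0.00189), 2.04 for Ang4 (adjusted p = 0.00172), 2.02 for Cd300lf (adjusted p = 3.98e-05) and 1.99 for Ptprc (adjusted p = 0.000609). The corresponding differences for Lgr5 (0.66, adjusted p = 0.397), Mmp7 (0.80, adjusted p = 0.21), Kit (0.32, adjusted p = 0.845), Muc2 (0.29, adjusted p = 0.912), Dclk1 (0.72, adjusted p = 0.0838) and Soat1 (0.59, adjusted p = 0.536) were not called. For the lower genes, Paneth minus YFP-LRC was -2.55 for Gip (adjusted p = 5.86e-05), -1.23 for Chgb (adjusted p = 0.000683) and -1.53 for Nefm (adjusted p = 0.00189), and 0.07 for Rgs1 (adjusted p = 0.987). Against YFP-LRC, where 0.41% of all genes were called in either direction and 6.08% unadjusted, 10 of 19 genes of the haematopoietic-type tuft list were called (8 without that array). The core tuft list had 3 of 23, eicosanoid synthesis 2 of 9, antimicrobial products 2 of 12, Paneth enzymes 2 of 22 and hormones 5 of 26. The goblet list had 0 of 18 (3 unadjusted in limma), the crypt base columnar list 0 of 27 (3 unadjusted) and the secretion list 0 of 35 (6 unadjusted). Whether a gene's 2 differences differ from each other was not tested.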

How the data were processed

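The data are log2 values of 18 Affymetrix Mouse Exon arrays, of which the 12 of Paneth cells and LCC enter the comparison. Per the file headers, the authors made these log2 values with Affymetrix Power Tools 1.12.0 by RMA (background correction, quantile normalization, median polish) for core probe sets on mm9. Per the labels' protocols, 8 ng of RNA per array was amplified with a NuGEN kit. The 2 deposited tables hold identical values. The 6 arrays per population limit the precision.

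The probe table gave 1 symbol to 209279 of 229581 probe sets. The 4446 with several and the 15856 with none were left out. Of 16380 symbols, 14190 were current and 2145 were synonyms in the RefSeq tables (GRCm38.p6, used for names and promoter sequence, with no mm9 coordinates given), and 45 kept their name. The gene value was the median over probe sets (median 11 per gene), for 16358 genes. Near-identical gene copies may share signal.

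Differences were fitted with limma 3.58.1 in R 4.3.3, with the mouse as a block, eBayes, 2-sided tests and Benjamini-Hochberg adjustment over all genes. The code was tested on simulated data. The design text gives 3 populations from each of 6 mice. As a check, deviations from the population mean correlated by -0.114 to 0.177 between the 2 arrays of a mouse and by -0.211 to 0.176 between arrays of different mice, so the arrays of a mouse were not more alike in this respect. The YFP-LRC array of mouse 6 carries another litter label than the other arrays of that mouse. The blocked fit was the main one. Named genes are the 15 largest per direction (called, same sign in 6 mice, at least 3 probe sets), up to 4 called members per list and preset markers, 103 in all. Other list members given by name were chosen after their values were seen. Olfm4, Cd24a and Alpi were not analysed here. The members, lists, motifs and rules were chosen with earlier results of these data known. Alternatives were other scalings, blocks, probe set summaries, filters, array weights and left-out mice.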

Additional observations from a re-analysis of the deposited data

Results flagged for a closer look

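Among the 103 named genes, 206 groups of 6 arrays were searched for a single array far from the rest, and 6 groups (2.9%) held one. Chance alone marks about 1 in 20 groups, so this number is below what chance gives. Samd9l was lowest on the Paneth array of mouse 6 at 6.07, with the other 5 between 6.87 and 7.22, and Srgn on the same array at 4.77, with the others between 5.32 and 5.62. Inpp5d was lowest on the LCC array of mouse 4 at 6.11, against 6.77 to 7.04. On the Paneth array of mouse 5, Rbl2 was highest at 7.70 (others 7.18 to 7.37) and so was Hexa at 9.37 (others 7.30 to 8.05). Dll4 was highest on the LCC array of mouse 6 at 7.27, against 6.45 to 6.70. Of these genes, Inpp5d kept its call without any 1 mouse and Dll4 was not called.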

How the results depend on the processing

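The fits differed far more in the number of calls than in direction. All 908 called genes kept their sign in 15 other fits. The 18-array fits, the fit without a block and that with a trend in the prior variance share the main fit's difference by design. The sign could not change in those. The rest were the 6 that left out 1 mouse, the fit without mice 5 and 6, the 2 other scalings, array weights and averaged probe sets. With LCC of mice 1 and 4 alone, 904 kept it. Leaving out 1 mouse moved the counts of higher genes between 119 and 1907, of lower genes between 9 and 279, and of genes at least 2-fold higher or lower between 116 and 1043 and between 8 and 42. Without mice 5 and 6 there were 69 higher and 7 lower genes, all of them at least 2-fold (69 and 7), and with LCC of mice 1 and 4 alone 90 and 12, of which 83 and 10. Mouse pairs enter as a block. With no replicate block 1379 genes were higher and 213 lower, and 774 of the 819 higher genes were called in both fits. In all 18 arrays 2135 and 455 were called with the block and 1958 and 414 without it, and 29 were at least 2-fold lower with it. A second quantile normalization gave 346 higher genes, 218 of them at least 2-fold, and 34 at least 2-fold lower. Centring gave 197 lower genes, 39 of them at least 2-fold. Averaging probe sets and array weights gave 178 lower genes each, and genes above the median level gave 59, of which 10 were at least 2-fold. Without the YFP-LRC array of mouse 6, a fit chosen after seeing the data, Paneth minus YFP-LRC had 42 higher and 8 lower genes (57 and 10 with it). The causes were not tested. Of the 103 named genes, 59 changed their call without mice 5 and 6 and with LCC of mice 1 and 4 alone, 17 after a second quantile normalization, 9 with centring and 6 without the block, and 0 changed sign past the threshold in any fit.

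List medians moved by less than their standard deviation between mice in 541 of 594 cases. After a second quantile normalization they became 0.37 for Paneth enzymes, 0.29 for eicosanoid synthesis, 0.60 for haematopoietic-type tuft genes, 0.30 for goblet genes, 0.21 for crypt base columnar genes, -0.026 for Wnt targets, -0.29 for Notch genes, -0.17 for regulated exocytosis, 0.049 for innate immune sensors, 0.11 for fucosyltransferases, -0.10 for G1 cyclins, -0.20 for immediate early genes, -0.19 for ribosomal proteins, 0.17 for lysosome genes and -0.38 for B and plasma cell genes. With centring they were -0.18 for Wnt ligands and receptors, -0.23 for Notch genes, -0.082 for regulated exocytosis, 0.10 for innate immune sensors, -0.40 for B and plasma cell genes, -0.26 for myeloid genes and -0.33 for stromal genes. Over genes above the median level they were 0.56 for antimicrobial products, 0.92 for eicosanoid synthesis, 0.48 for Wnt targets, 0.14 for Wnt ligands and receptors, 0.13 for Notch genes, 0.57 for EGF and ErbB genes, 0.58 for regulated exocytosis, 0.38 for innate immune sensors, 0.18 for aryl hydrocarbon receptor targets, -0.12 for T cell genes, -0.15 for B and plasma cell genes, 0.24 for myeloid genes and 0.68 for red cell genes. With LCC of mice 1 and 4 alone they were 0.56 for antimicrobial products, 1.30 for haematopoietic-type tuft genes, 0.047 for Notch genes, 0.079 for EGF and ErbB genes, -0.006 for regulated exocytosis, -0.16 for innate immune sensors, -0.035 for S phase genes, -0.18 for G2 and mitosis genes, -0.055 for immediate early genes, -0.18 for ribosomal proteins and 0.015 for barrier genes. Genes with at least 3 probe sets gave 0.56 for antimicrobial products, averaged probe sets 0.081 for regulated exocytosis and 0.11 for innate immune sensors, and the fit without mice 5 and 6 -0.086 for regulated exocytosis. Leaving out 1 mouse took the exocytosis median from -0.050 to 0.078.

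The 6 arrays per population limit the precision. Signal over background per probe set is not given in the sources used here, so low values were not separated from background. Scan batches are not given in them either, and no values within batches are reported. A gene without a call was not shown to be equal in the populations.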

Other observations

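Of the 107 genes called in every leave-one-mouse-out fit, 31 stood in a gene list and 76 in none. The following were picked from those 76 after their values were seen, and their differences are Paneth minus LCC on the log2 scale. Several encode secreted or secretory-pathway proteins. Pglyrp1, a secreted protein that binds bacterial peptidoglycan, was higher by 1.30 ± 0.18 (adjusted p = 0.00865), and Reg4, a secreted C-type lectin of the Reg family, by 1.42 ± 0.22 (adjusted p = 0.0118). C4bp, a regulator of complement, was higher by 1.80 ± 0.20 (adjusted p = 0.00354), and Agt, angiotensinogen, by 1.43 ± 0.21 (adjusted p = 0.00991). Nucb2, the calcium-binding precursor of nesfatin, was higher by 1.97 ± 0.23 (adjusted p = 0.00428), the selenoprotein Selenom by 1.69 ± 0.22 (adjusted p = 0.00693) and Galnt5, which starts mucin-type sugar chains, by 1.19 ± 0.16 (adjusted p = 0.00643).

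Others are signalling or ion-handling genes. The nuclear receptor Pparg was higher by 1.66 ± 0.17 (adjusted p = 0.00326), the calcium pump Atp2a3 by 1.84 ± 0.20 (adjusted p = 0.00326), the carbonic anhydrase-related Car8 by 1.60 ± 0.17 (adjusted p = 0.00326) and the sialic acid-binding receptor Siglec5 by 1.71 ± 0.23 (adjusted p = 0.00734). The lysosomal protease Lgmn was higher by 1.66 ± 0.18 (adjusted p = 0.00326).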
